A study of Mus musculus with 4 samples.

Results

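The 9 genes described here give mast cells their growth factor receptor (Kit), their high-affinity IgE receptor (Fcer1a, Ms4a2 and Fcer1g), 2 Mas-related G protein-coupled receptors (Mrgprb1 and Mrgprb2), the enzymes that start histamine and serotonin synthesis (Hdc and Tph1) and a transcription factor of the lineage (Gata2). They were taken by symbol from the 32285 genes in the count matrices, and all 9 were present in all 4 libraries. The libraries held CD45+ leukocytes sorted from both hindpaws of male mice on the C57BLKS/J background. Diabetic animals carried the leptin receptor mutation on both alleles (Lepr db/db, called DB) and control animals were their Lepr WT/WT littermates (WT). Each genotype was taken at 12 weeks (labelled Young) and at 21 weeks (labelled Aged), which gave 12-week-WT and 12-week-DB as the younger groups and as the older ones 21-week-WT and its counterpart 21-week-DB. Lepr db/db mice lack the signalling form of the leptin receptor in every tissue and become obese as well as hyperglycaemic, so the genotype is not diabetes alone. Every group was 1 droplet library made from the pooled cells of 2 to 3 mice. No replicate error exists between groups, and for that reason every comparison of genotypes or ages below is given with no test and with 95% intervals that cover counting error only.

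Mast cells are tissue-resident leukocytes of the skin and connective tissue that store histamine, serotonin and proteases in granules. Stem cell factor acts through Kit and keeps them alive. Antigen that cross-links IgE on the FcεRI receptor releases the granules, and so do cationic peptides and drugs that act on Mas-related receptors without IgE. FcεRI is built from an IgE-binding alpha chain (Fcer1a), an amplifying beta chain (Ms4a2) and a signalling gamma chain (Fcer1g), and the gamma chain also serves Fc receptors of macrophages, neutrophils and NK cells. Histidine decarboxylase (Hdc) makes histamine from histidine, and tryptophan hydroxylase 1 (Tph1) makes the precursor of serotonin outside the brain. Gata2 encodes a zinc-finger factor that binds GATA sequences and is required to form mast cells.

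The sequence just before the start of 4 of the genes is shown because Gata2, 1 of the 9, binds words with a GATA core. These 4 windows lie wholly outside their own gene, and each holds such a word. The windows of the other genes are not shown, among them those that hold no such word. A Tph1 window (chr7:46672538-46672787) that also lies outside its gene and holds such a word is not shown either. Overlap of the windows with other genes was not checked. The windows are the 250 bases before the annotated start, read 5′ to 3′ on the strand of the gene, from RefSeq promoters on GRCm38.p6, and capitals mark a GATA word on either strand. The words searched were AGATAA and its form that ends in G, written AGATAG. The same pair with T as the first base, TGATAA and the form TGATAG, was searched too. The windows lay at chr1:173227230-173227479 for Fcer1a, chr19:11623720-11623969 for Ms4a2, chr7:48456343-48456592 for Mrgprb1 and chr7:48558087-48558336 for Mrgprb2, all on the minus strand.
Fcer1a: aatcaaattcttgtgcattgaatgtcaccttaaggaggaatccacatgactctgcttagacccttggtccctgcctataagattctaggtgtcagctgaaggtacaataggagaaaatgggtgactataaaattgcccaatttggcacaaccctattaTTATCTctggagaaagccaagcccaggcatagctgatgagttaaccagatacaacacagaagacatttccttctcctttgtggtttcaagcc
Ms4a2: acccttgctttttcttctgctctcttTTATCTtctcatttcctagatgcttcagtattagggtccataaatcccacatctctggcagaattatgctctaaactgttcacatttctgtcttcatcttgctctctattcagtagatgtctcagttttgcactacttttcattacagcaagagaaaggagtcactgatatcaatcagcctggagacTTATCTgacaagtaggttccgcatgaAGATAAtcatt
Mrgprb1: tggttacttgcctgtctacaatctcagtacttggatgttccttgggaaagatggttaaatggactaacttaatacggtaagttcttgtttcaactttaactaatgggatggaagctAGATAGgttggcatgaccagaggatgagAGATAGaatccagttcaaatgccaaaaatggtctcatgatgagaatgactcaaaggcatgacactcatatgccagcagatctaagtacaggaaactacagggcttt
Mrgprb2: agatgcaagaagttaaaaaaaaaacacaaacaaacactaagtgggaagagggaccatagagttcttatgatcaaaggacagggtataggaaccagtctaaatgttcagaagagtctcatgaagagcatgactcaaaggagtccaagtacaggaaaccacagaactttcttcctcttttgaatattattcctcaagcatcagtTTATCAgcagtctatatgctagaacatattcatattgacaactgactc
The Ms4a2 window held 3 AGATAA words, the nearest of them 11 bases from the start. The Mrgprb1 window held 2 AGATAG words, and the windows of Fcer1a and Mrgprb2 held 1 word each. Over the 12 RefSeq windows of the 9 genes, some of which have more than 1 start, 6 held at least 1 of the 4 words, and 26.5% of the 32851 mouse promoter windows of the same length did. The word TATAAA, on either strand, was in 1 of the 12 windows, that of Fcer1a, and in 12.4% of all windows. CANNTG, the E-box, was in 5 of the 12 and in 66.2% of all. These matches are a description of letters and were not tested as binding sites. A local alignment of the Mrgprb1 and Mrgprb2 windows paired 105 columns, of which 75 (71.4%) held the same base.

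In the GENCODE vM21 annotation of GRCm38, Mrgprb1 (chr7:48444113-48456342), Mrgprb2 (chr7:48550965-48558086) and Tph1 (chr7:46644641-46672537) lay on chromosome 7. Fcer1a (chr1:173221284-173227214) and Fcer1g (chr1:171229572-171234365) lay on chromosome 1. The remaining genes were Kit at chr5:75574916-75656722, Gata2 at chr6:88193891-88207032, Hdc at chr2:126593667-126619299 and Ms4a2 at chr19:11615523-11623719. Kit and Gata2 are on the plus strand and the other 7 on the minus strand. No other annotated gene overlapped any of the 9, so reads could not be shared by position. Reads can also be shared by sequence, and the transcripts of Mrgprb1 and Mrgprb2 had no 31-base word in common. The related receptor gene Mrgprx2 shared 38 such words with Mrgprb1, 2.40% of the words of Mrgprb1 were found in other genes in all, and the share was 3.96% for Ms4a2 and at most 0.498% for the other 7.

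The libraries held 5998 to 9124 barcodes and 47851794 to 69626521 UMIs (unique molecular identifiers, which tag single RNA molecules), and 27800 barcodes were kept after those under 200 genes or over 10% mitochondrial UMIs had been removed. A barcode was called a mast cell where Cpa3, Cma1, Mcpt4 and Tpsb2, the genes of 4 granule proteases, together made up at least 1% of its UMIs and at least 2 of them were detected. None of the 9 genes entered this gate. Mast cells numbered 346 in WT and 297 in DB at 12 weeks, 228 in WT and 1228 in DB at 21 weeks, and 2099 (7.55% of the kept barcodes) in all. In that order their shares were 6.56%, 4.53%, 3.14% and 14.1% of the kept barcodes of each library. The DB share was 0.691 times the WT share at 12 weeks (0.589 to 0.809) and 4.50 times it at 21 weeks (3.90 to 5.20). The 10 genes with the highest fold in the gated barcodes included Mcpt2, Cma2, Tpsab1 and Mcpt9, proteases that the gate did not use, together with Mrgprb1 and Ms4a2, and no marker of another class. Markers of basophils made up 0.0402% to 0.0587% of mast cell UMIs, against 0.183% to 0.297% in the basophil-like barcodes, and eosinophil markers at most 0.00424%. The basophil-like barcodes were picked by those same basophil markers, so their higher share was set in advance.

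The mast cells were shallower than the other barcodes, with medians of 1421 to 2096.5 UMIs against 6003 to 8224.5. The 21-week-DB mast cells had the lowest depth, the lowest median share of gate protease UMIs (2.95%, against 4.56% in 21-week-WT) and the lowest share of 8 marker genes of macrophages, T cells and class II-positive cells (0.0445% of UMIs, against 0.235% in 21-week-WT, 0.165% in 12-week-DB and 0.221% in 12-week-WT). A fixed count of marker UMIs is reached more readily in deeper barcodes. Barcodes with at least 3 UMIs of those 8 markers were 39.6%, 19.9%, 25.4% and 5.46% of the mast cells in the same order of libraries as above, 12-week-WT first. This order is kept below wherever 4 values stand in a row. Not every marker went this way. T cell marker Cd3e had 13.3, 33.3, 15.9 and 16.7 CPM (UMIs per 1000000) in mast cells, and 5 ILC2 markers were highest in 21-week-DB, at 0.0917%, 0.121%, 0.132% and 0.261% of mast cell UMIs. The 12-week and the 21-week libraries also carried different versions of the counting software in their file headers, and by those headers age and software cannot be told apart. Between 5 and 146 kept barcode sequences were shared by pairs of libraries, and none of these was a mast cell in both.

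All 9 genes were higher in mast cells than in the other barcodes. The sums over mast cells and over other barcodes of the 4 libraries were set against each other by the quasi-likelihood test of edgeR, blocked on library, with Benjamini-Hochberg adjustment over 15376 genes. All 9 had an adjusted p under 0.05 as higher and 0 as lower, where 16.7% of all genes tested were called higher and 26% lower. All 9 passed the filter on low counts. They were chosen as mast cell genes, with earlier results of these data known, so this outcome was largely set in advance. The same limit holds for the p-values of single genes below.

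Kit, the receptor for stem cell factor, was detected in nearly all mast cells. Its level in mast cells was 1982, 1989, 1410.4 and 1803 CPM (its UMIs per 1000000 UMIs of all mast cells of the library), and in the other barcodes it was 24.2, 43.9, 34.7 and 84.3. The lowest mast cell level was that of 21-week-WT, and no library's level in other barcodes came near any mast cell level. The difference between mast and other barcodes was 5.41 on the log2 scale (SE 0.24, n = 4 pairs of sums, edgeR adjusted p = 2.50e-13). Kit had at least 1 UMI in 95.7%, 91.2%, 90.4% and 86.4% of mast cells. With every mast cell thinned to 1000 UMIs these shares became 84.0%, 80.4%, 75.5% and 79.4%, which puts 21-week-WT and not 21-week-DB lowest. The thinned shares here and below rest on 297, 237, 193 and 885 mast cells, the rest being shallower. In DB the level was 1.004 times that in WT at 12 weeks (0.934 to 1.08) and 1.28 times at 21 weeks (1.18 to 1.38). The 21-week level was 0.712 times the 12-week level in WT and 0.906 times in DB.

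Mast cells held a minority of the Kit UMIs in some libraries. Of all Kit UMIs in kept barcodes, 61.9%, 35.3%, 25.5% and 46.9% were in mast cells. Most of the rest lay in barcodes like group 2 innate lymphoid cells (ILC2-like, described further on).

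**Figure D1:**
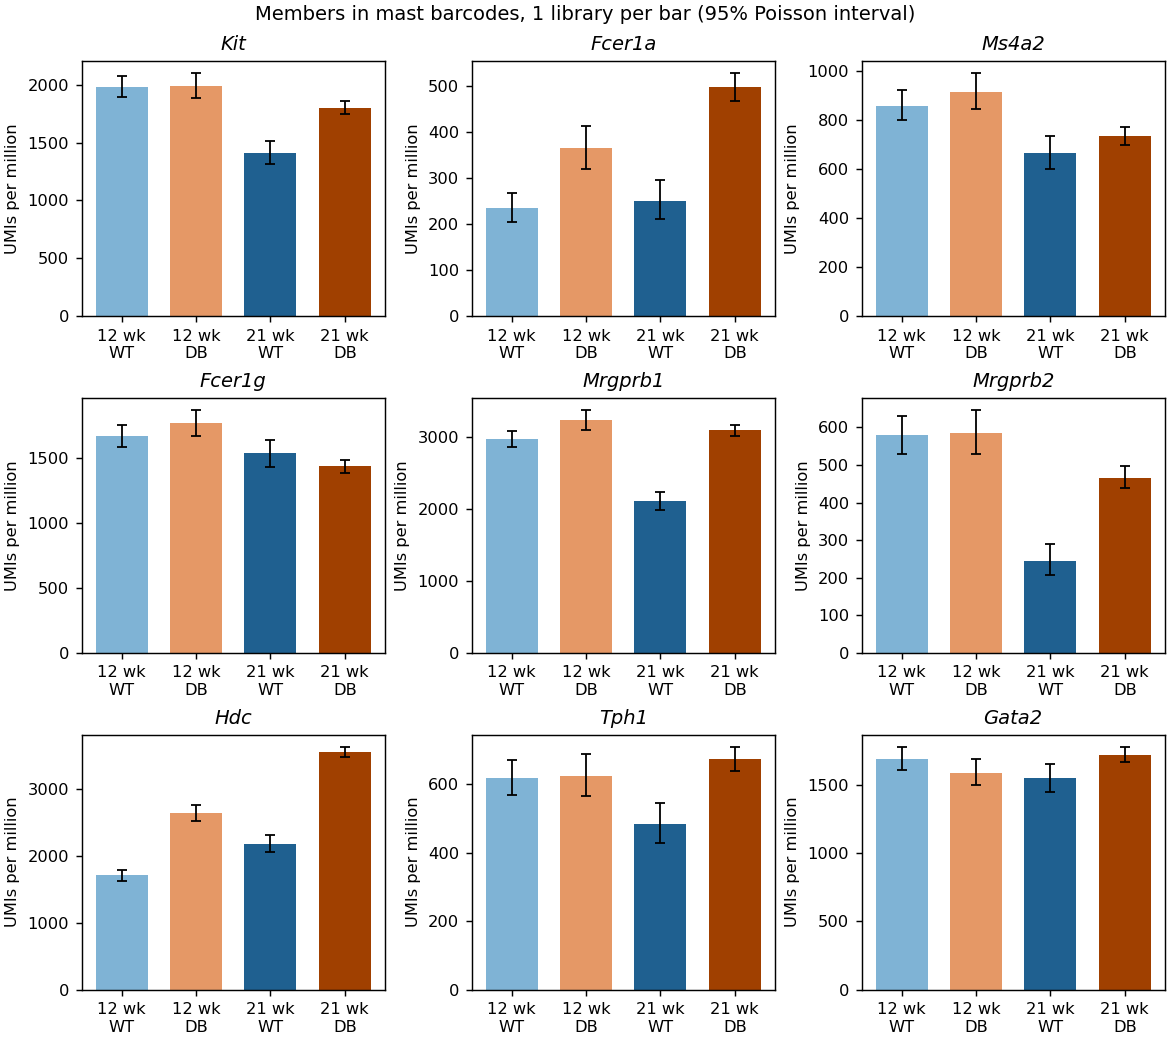
Level of each of the 9 genes in mast cells, in CPM, with 1 bar per library and 95% Poisson intervals. The bars of all genes but Fcer1g and Gata2 are higher in DB than in WT at both ages, by little for some of them. Mrgprb2 has its lowest bar in 21-week-WT (245).

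The alpha chain gene of the IgE receptor, Fcer1a, was higher in DB mast cells at both ages. Its levels were 234, 365, 251 and 497 CPM in mast cells, and 0.505, 0.437, 0.923 and 0.976 in other barcodes. Both DB levels lay above both WT levels. The ratio of DB to WT was 1.56 at 12 weeks (1.29 to 1.88) and 1.98 at 21 weeks (1.66 to 2.38). The interval of each Fcer1a level reached at most 17.9% to a side, wider than for the more abundant genes, where it was 5.73% for Hdc and 7.18% for Kit. Fcer1a was detected in 29.8%, 36.7%, 33.8% and 41.9% of mast cells, and in 17.0%, 24.9%, 22.0% and 34.1% after thinning. The order of the libraries was the same in both sets of shares. Against the other barcodes the difference was 8.87 on the log2 scale (SE 0.25, edgeR adjusted p = 3.05e-16).

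The beta chain gene, Ms4a2, which amplifies the signal of the receptor, differed little between genotypes. Mast cells held 859, 915, 665 and 734 CPM, against 1.10, 0.766, 0.819 and 1.99 in other barcodes. The 21-week libraries were the lower ones in both genotypes, at 0.775 times the 12-week level in WT and 0.802 times in DB. The DB to WT ratio was 1.07 at 12 weeks (0.956 to 1.19) and 1.10 at 21 weeks (0.985 to 1.24), so both intervals included 1. Ms4a2 was detected in 76.3%, 77.1%, 67.1% and 60.4% of mast cells and in 54.7%, 58.2%, 49.9% and 49.8% after thinning. Its difference from other barcodes was 9.47 on the log2 scale (SE 0.25, edgeR adjusted p = 1.57e-16).

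The gamma chain gene, Fcer1g, was the least restricted of the 9. Its levels were 1667, 1767, 1536 and 1437 CPM in mast cells and 803, 810, 725 and 548 in other barcodes. Only 3.95%, 2.56%, 1.76% and 9.79% of its UMIs were in mast cells. Mast cells were nonetheless higher within each library, by 2.08, 2.18, 2.12 and 2.62 times, and by 1.17 on the log2 scale in the test (SE 0.15, edgeR adjusted p = 2.33e-06). DB mast cells had 1.06 times the WT level at 12 weeks (0.981 to 1.14) and 0.936 times at 21 weeks (0.868 to 1.01). Fcer1g and Gata2 were the members with a DB to WT ratio below 1 at one of the ages, Fcer1g at 21 weeks and Gata2 at 12 weeks. Detection ran from 81.5% of mast cells in 21-week-DB to 92.8% in 12-week-WT, and from 71.7% to 80.9% in the same libraries after thinning.

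The 3 chains were rarely all seen in 1 mast cell. All 3 were detected in 22.5%, 30.0%, 22.8% and 26.1% of mast cells, and the share was bounded by the detection of Fcer1a. A chain with no UMI in a barcode is not shown to be absent from that cell.

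Mrgprb1, a receptor gene of the Mas-related family on the same chromosome as Mrgprb2, had 2963, 3229, 2104 and 3085 CPM in mast cells. Other barcodes held 1.45, 1.02, 0.551 and 8.05. The 21-week-WT level was the lowest and the other 3 lay within a narrow span. The ratio of DB to WT was 1.09 at 12 weeks (1.03 to 1.15) and 1.47 at 21 weeks (1.38 to 1.56). The ratio of 21 to 12 weeks was 0.710 in WT and 0.955 in DB. Mrgprb1 was detected in 96.2%, 93.6%, 92.5% and 94.9% of mast cells and, after thinning, in 90.0%, 89.6%, 84.7% and 91.9%. Against the other barcodes the difference was 10.70 on the log2 scale (SE 0.45, edgeR adjusted p = 1.31e-13), the 3rd largest of the 15376 genes.

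Mrgprb2 encodes the receptor through which basic peptides and drugs activate mouse connective tissue mast cells, a route that needs no IgE. Its levels were 579, 585, 245 and 467 CPM in mast cells, and 0.571, 0.273, 0.104 and 1.61 in other barcodes. The 21-week-WT value stood apart from the other 3. The level at 21 weeks was 0.424 times that at 12 weeks in WT (0.349 to 0.512) and 0.797 times in DB, and the DB to WT ratio was 1.01 at 12 weeks (0.884 to 1.15) and 1.90 at 21 weeks (1.59 to 2.29). Mrgprb2 was detected in 63.6%, 60.9%, 36.4% and 47.5% of mast cells, and in 42.1%, 44.7%, 21.7% and 34.7% after thinning. Thinning left 21-week-WT lowest. The difference from other barcodes was 9.79 on the log2 scale (SE 0.36, edgeR adjusted p = 1.77e-14).

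The receptors were compared within single mast cells. Both Mrgprb1 and Mrgprb2 were detected in 62.4%, 58.2%, 35.1% and 46.3% of mast cells, close to the shares with Mrgprb2 alone counted. Mast cells with Mrgprb2 had 1.33, 1.37, 1.08 and 1.04 times the Mrgprb1 level of those without it, and the intervals of the latter pair reached below 1 (0.966 and 0.992). They had 0.833, 0.631, 0.763 and 0.845 times the Tph1 level, below 1 in all 4 libraries, though the interval of 12-week-WT reached 1.003. The Mrgprb2-positive mast cells were the deeper ones in every library, with medians of 1626 to 2400 UMIs against 1241 to 1720.5, and these splits are given as a description.

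Hdc, which makes histamine, was higher in DB mast cells at both ages and higher at 21 weeks in both genotypes. Its levels were 1709, 2641, 2185 and 3557 CPM in mast cells. The other barcodes held 32.3, 21.4, 39.6 and 23.5. Both DB levels in mast cells were above both WT levels, and in the other barcodes both DB levels were below both WT levels. The other barcodes mix classes of cells, which are described further on. With each class held at its WT share of the UMIs, their DB to WT ratio was 1.01 in place of 0.662 at 12 weeks. At 21 weeks it was 0.691 in place of 0.592. In mast cells the DB to WT ratio was 1.55 at 12 weeks (1.44 to 1.66) and 1.63 at 21 weeks (1.53 to 1.73). The ratio of 21 to 12 weeks was 1.28 in WT and 1.35 in DB. The share of all genes at least as far from no change was 18.2% and 25.4% for these genotype ratios at 12 and 21 weeks. For the age ratios it was 53.4% in WT and 50.2% in DB. Hdc was detected in 78.3%, 80.8%, 85.1% and 88.3% of mast cells, and in 65.5%, 74.3%, 73.3% and 85.9% after thinning, lowest in 12-week-WT and highest in 21-week-DB both ways. The median mast cell held 1073, 1603, 1634 and 2765 Hdc CPM, which follows the order of the detected shares. The difference from other barcodes was 6.43 on the log2 scale (SE 0.28, edgeR adjusted p = 2.69e-13).

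Tph1, which makes the serotonin precursor, had 618, 625, 484 and 674 CPM in mast cells and 0.637, 0.620, 0.819 and 2.35 in other barcodes. The lowest level was in 21-week-WT, as it was for Kit, Ms4a2, Mrgprb1, Mrgprb2 and Gata2. DB mast cells had 1.01 times the WT level at 12 weeks (0.888 to 1.15) and 1.39 times at 21 weeks (1.22 to 1.59). Tph1 was detected in 63.0%, 55.9%, 56.6% and 52.6% of mast cells and in 42.8%, 41.7%, 38.5% and 42.2% after thinning, a narrower span. Against other barcodes the difference was 9.23 on the log2 scale (SE 0.27, edgeR adjusted p = 5.08e-16). Both enzymes were detected in 51.4%, 46.1%, 49.6% and 48.0% of mast cells. The Hdc level of Tph1-positive mast cells was 1.11, 0.941, 1.03 and 1.04 times that of Tph1-negative ones, with no common direction.

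Gata2, the transcription factor, varied least between libraries in mast cells, with 1.11 times between its lowest and highest level. It had 1692, 1589.8, 1549.9 and 1720.1 CPM in mast cells and 4.90, 2.57, 4.97 and 5.87 in other barcodes. The DB to WT ratio was 0.939 at 12 weeks (0.868 to 1.02) and 1.11 at 21 weeks (1.03 to 1.20), and the latter went below 1 when the mast cells with markers of other classes were left out (log2 ratio -0.15 in place of 0.15). Gata2 was detected in 91.3%, 82.8%, 88.6% and 80.6% of mast cells and in 78.7%, 73.7%, 72.4% and 72.6% after thinning. Its difference from other barcodes was 8.54 on the log2 scale (SE 0.23, edgeR adjusted p = 1.57e-16).

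Read over the 9 genes, 8 were higher and 1 lower in DB than in WT mast cells at 12 weeks, with a median log2 ratio of 0.08 against -0.06 for all genes. Of the 8, only Fcer1a, Mrgprb1 and Hdc had intervals above 1, and those of Kit, Ms4a2, Fcer1g, Mrgprb2 and Tph1 included it. The share of all genes that were higher was not taken. None of the 9 was at least 2-fold different in that comparison, where 1.91% of all genes were at least 2-fold higher and 4.73% lower. At the later age the median was 0.48 against -0.02, and 8 of the 9 were higher in DB and 1 was lower. Again none reached 2-fold (background 7.61% higher and 6.29% lower), although Fcer1a and Mrgprb2 came close to it. From 12 to 21 weeks in WT, 2 were higher and 7 lower, with a median of -0.35 against -0.16, and 1 of the 9, Mrgprb2, was at least 2-fold lower, where 2.69% of all genes were at least 2-fold higher and 8.64% lower. In DB 4 were higher and 5 lower, with a median of -0.07 against -0.16, and none was 2-fold different (background 5.23% and 8.53%). The share of all genes at least as far from no change as a member was also taken. For DB to WT it ran from 17.8% (Fcer1a) to 99.1% (Kit) at 12 weeks and from 14.3% (Fcer1a) to 86.8% (Fcer1g) at 21 weeks. By age it ran from 5.99% (Mrgprb2) to 86.1% (Fcer1a) in WT and from 48.5% (Fcer1a) to 91.5% (Mrgprb1) in DB. These comparisons share libraries, and 21-week-WT, the smallest set of mast cells, enters both the 21-week genotype ratio and the WT age ratio.

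**Figure D2:**
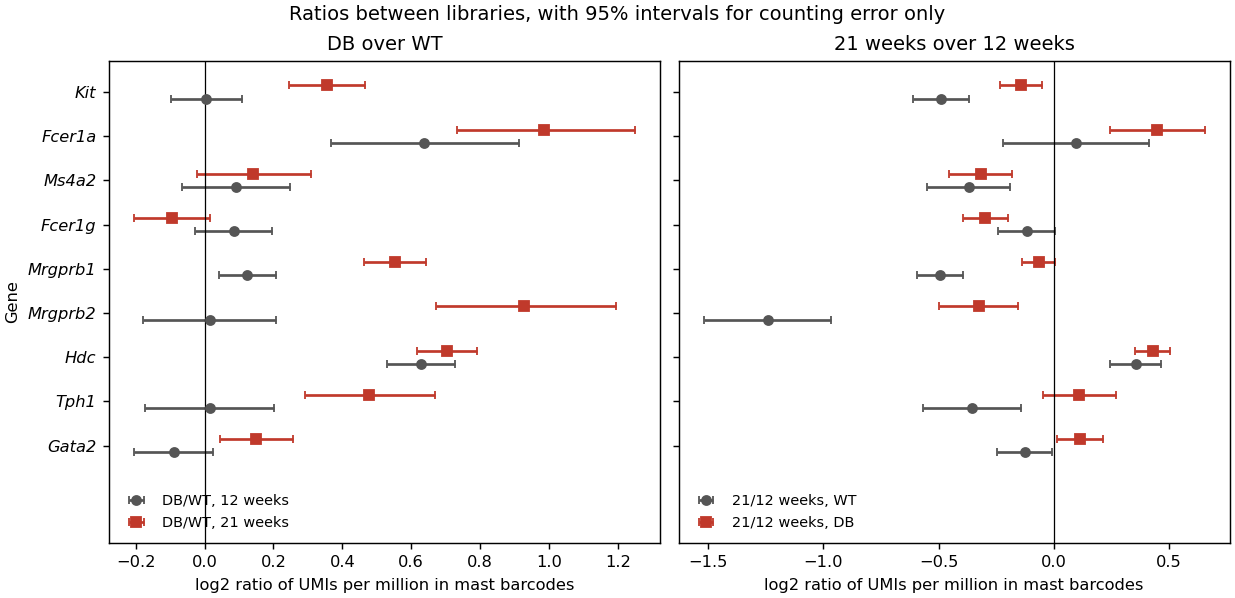
Log2 ratio of the level (CPM) of each gene in mast cells, DB over WT at each age (left) and 21 over 12 weeks in each genotype (right), with 95% conditional intervals for counting error. The intervals of Fcer1a, Mrgprb1 and Hdc lie above 0 in both DB to WT comparisons, and Mrgprb2 lies near 0 at 12 weeks (0.02) and at 0.93 at 21 weeks.

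The 21-week DB to WT ratios moved when mast cells with UMIs of the other classes' markers described above were left out. A fixed count of UMIs is reached more readily in deeper barcodes, and the part of depth in these moves was not tested. With the mast cells that held at least 3 UMIs of the 8 markers left out, the log2 ratio went from 0.70 to 0.47 for Hdc, from 0.55 to 0.37 for Mrgprb1, from 0.48 to 0.25 for Tph1 and from 0.14 to -0.03 for Ms4a2. For Fcer1a it went from 0.99 to 0.92 and for Mrgprb2 from 0.93 to 0.91. All but Ms4a2 of these 6 kept a ratio above 1.

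**Figure D3:**
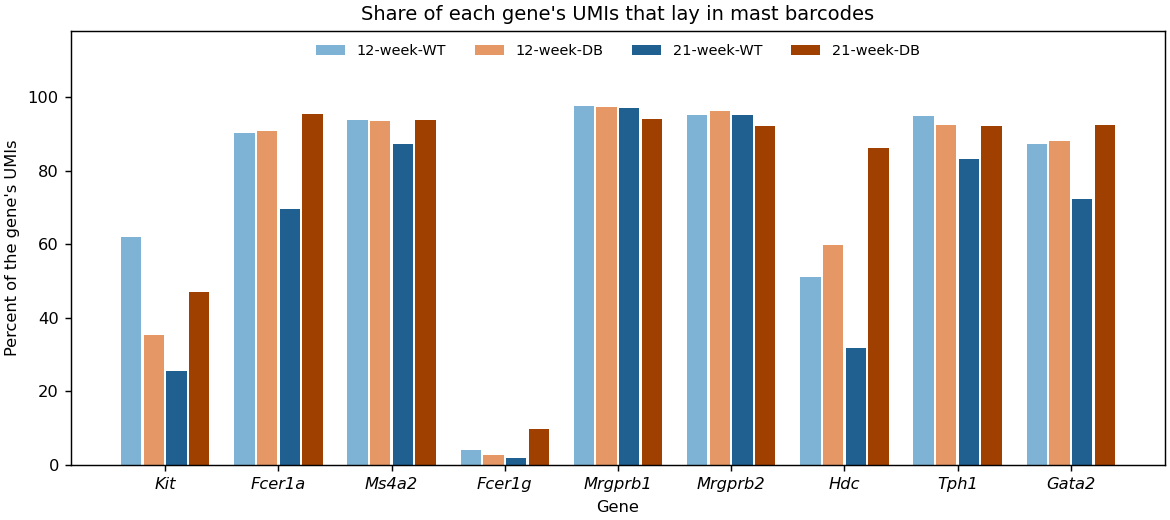
Percent of the UMIs of each gene in kept barcodes that lay in mast cells, for the 4 libraries. Mrgprb1 is at 94.1% or above in all 4, Fcer1g at 9.79% or below, and Hdc runs from 31.8% to 86.2%.

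Mrgprb1 and Mrgprb2 had the highest shares of their UMIs inside the gate in the 3 libraries other than 21-week-DB, where Fcer1a had the highest and Mrgprb2 was below Ms4a2 and Gata2. Of the Mrgprb1 UMIs, 97.6%, 97.4%, 97.0% and 94.1% were in mast cells, and of the Mrgprb2 UMIs 95.3%, 96.3%, 95.2% and 92.3%. The shares for Tph1 were 95.1%, 92.4%, 83.3% and 92.2%, for Ms4a2 93.9%, 93.5%, 87.3% and 93.8%, for Fcer1a 90.2%, 90.9%, 69.6% and 95.5% and for Gata2 87.2%, 88.2%, 72.4% and 92.4%. The UMIs of the 4 gate proteases themselves were 95.7% to 97.4% in mast cells. In 21-week-DB, 64 barcodes lay just below the gate, with 0.5% to 1% of UMIs from at least 2 of the proteases, against 2, 3 and 5 in the other libraries. They held 62.5% of the Mrgprb1 UMIs outside the gate (263 of 421) and 60.2% of those of Tph1, but 3.97% of those of Kit. Of the Hdc UMIs outside the gate they held 31.6% (388 of 1226). Their own levels were 1325 CPM for Mrgprb1, 881 for Kit and 1954 for Hdc, and without them the other barcodes of 21-week-DB had 3.03 CPM of Mrgprb1 in place of 8.05.

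Genes of the same pathways were taken from lists drawn up around the 9. Of 14 FcεRI signalling genes, 11 were higher and 1 lower in mast cells than in other barcodes by the same edgeR test, with a median log2 difference of 0.97 against -0.28 for all genes. Lat2, an adaptor of the receptor complex, was higher by 3.27, Plcg1, a phospholipase, by 2.16 and Btk, a kinase, by 1.98, while Plcg2 was lower (-1.18). Syk, the kinase that docks on the gamma chain, differed by -0.14 (SE 0.17, edgeR adjusted p = 0.525) and was not called. Of 10 genes on the Kit and cytokine axis, 7 were higher and 1 lower, with a median of 1.17, beside 16.7% of all genes called higher, 26% called lower and a median of -0.28. Il1rl1, the IL-33 receptor, was higher by 4.14 and Csf2rb2, a cytokine receptor chain, by 3.91, and Kitl, the ligand of Kit, was lower (-2.30).

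Of 12 genes for amine storage, cofactor supply and breakdown, 10 were tested, 6 were higher and 1 was lower in mast cells. Slc18a2, the vesicular transporter that loads histamine and serotonin into granules, was higher by 8.32 on the log2 scale, Ddc, the enzyme after Tph1 in serotonin synthesis, by 7.77, Maob, a monoamine oxidase, by 8.32 and Ndst2, which sulphates granule heparin, by 4.15. Gch1, which starts synthesis of the cofactor that Tph1 needs, was higher by 1.39. Hnmt, which inactivates histamine, was the one lower gene (-4.03). The median of the list was 1.08, against -0.28 for all genes, of which 16.7% were called higher and 26% lower. Of 13 amine receptors only 6 had enough UMIs to be tested, and a receptor high in mast cells could pass the filter through those UMIs, so the counts are a description. Hrh4, a histamine receptor, had 7, 4, 0 and 18 UMIs in mast cells (log2 difference 4.63), and Hrh1, Hrh2, Htr1b and Htr7 were lower. The median of the 6 tested receptors was -2.03.

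Of 18 other Mas-related genes, 7 were tested and 5 were higher in mast cells. Genes of this list that were high in mast cells passed the count filter through those UMIs, so the counts are a description. The gene listed as Mrgprx2, which is not Mrgprb2, had 326, 410, 125 and 327 CPM in mast cells, with its lowest level in 21-week-WT like Mrgprb2. It shares sequence with Mrgprb1, as given above. Of 9 transcription factors, 5 were higher and 2 lower, with a median of 1.10, where all genes had a median of -0.28, 16.7% higher calls and 26% lower calls. Meis2 was higher by 9.10, Gata1, a relative of Gata2, by 8.77, Tal1 by 7.87 and Mitf, the factor downstream of Kit, by 3.20, and Lmo2 and Cebpa were lower.

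Within mast cells several of these genes differed between libraries, and those given here were chosen after their values were seen. Csf2rb had 211, 284, 436 and 756 CPM and Csf2rb2 had 84.3, 160.3, 249 and 622, so both chains were above their 12-week level at 21 weeks in both genotypes and above WT in DB at both ages. Slc18a2 went the other way with age, at 1188, 1026, 687 and 755. Ddc had 117, 62.0, 42.4 and 57.8, and its highest level was that of 12-week-WT. Gch1 had 93.2, 92.3, 162 and 247. Meis2 (454, 422, 233 and 213) and Tal1 (454, 419, 339 and 234) were lower at 21 weeks in both genotypes, while Il1rl1 (1591, 1588, 1223 and 1618) had its lowest level in 21-week-WT. The median log2 ratio of 21 to 12 weeks over genes with at least 50 UMIs was -0.13 in WT and -0.12 in DB, a shift to be set against these age differences.

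Barcodes outside the gate were placed in classes by the mean standardised log level of 5 markers a class, and a class was named only where its own markers led it. The scoring was set after the data had been seen. The score of 765 barcodes (2.98%) was within 0.1 SD of that of a second class or of the limit for naming.

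**Figure D4:**
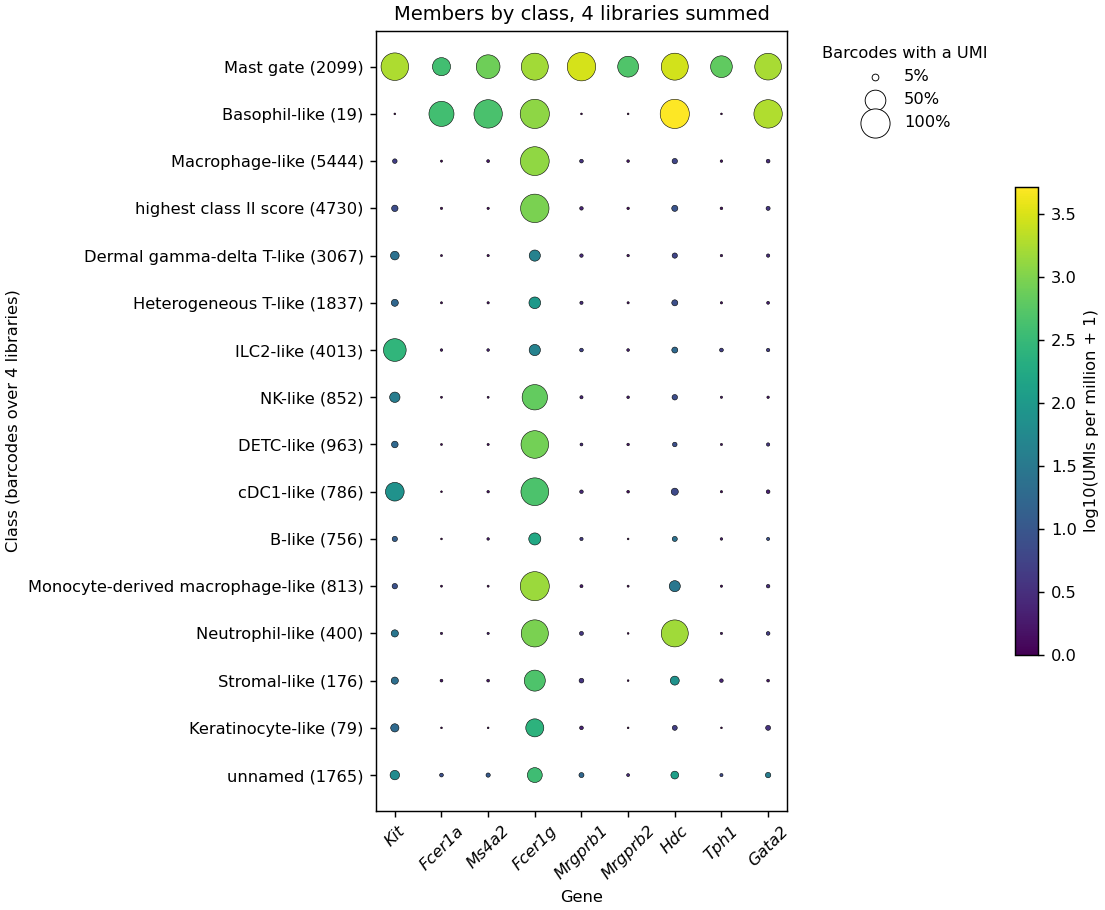
The 9 genes (columns) in mast cells and in the classes of other barcodes (lines, with the number of barcodes), summed over libraries, where colour is log10 of CPM plus 1 and dot area grows with the percent of barcodes with a UMI. Basophil-like barcodes share Fcer1a, Ms4a2, Hdc and Gata2 with mast cells and have no UMI of Kit, Mrgprb1, Mrgprb2 or Tph1.

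The basophil-like barcodes, 5, 3, 9 and 2 in the libraries, carried part of the mast cell set. Led by Mcpt8, they had 5137 CPM of Hdc, 1871 of Gata2, 385 of Fcer1a, 445 of Ms4a2 and 1222 of Fcer1g over 19 barcodes. Kit, Mrgprb1, Mrgprb2 and Tph1 had 0 UMIs, which allows up to 22.6 CPM (3 counts), far below any mast cell level. Hdc in them was 3943, 5055, 5788 and 4064 in the 4 libraries. With 2 to 9 barcodes a library these levels were not compared between groups. Their gate proteases were low but not absent, with 483 CPM of Cpa3 and 7.54 of Cma1.

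Kit outside mast cells was led by ILC2-like barcodes, of which there were 372, 853, 742 and 2046. Their top genes by fold were Il5, Htr1b and Il13. They held 71.3% of the Kit UMIs outside the gate, at 217, 306, 243 and 266 CPM, and 60.5% of them had a Kit UMI at a median depth of 6360 UMIs. In macrophage-like barcodes, taken as a class without Kit, 2.08% had one at a median of 9497. The DB to WT ratio of Kit in ILC2-like barcodes was 1.41 at 12 weeks and 1.09 at 21 weeks. cDC1-like barcodes, led by Cd207 and Xcr1, had 65.3, 48.0, 84.1 and 103 CPM with 40.8% positive at a median of 13373.5 UMIs, NK-like barcodes had 28.2, 30.8, 27.6 and 52.3, and dermal γδ T-like barcodes had 37.0, 20.9, 29.3 and 10.9. The Kit level of the dermal γδ T-like barcodes was lower in DB at both ages, at 0.566 and 0.372 times WT.

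Over all other barcodes together the Kit level was 1.81 times WT in DB at 12 weeks and 2.43 times at 21 weeks. A summed level of this kind cannot tell fewer cells of a type from less RNA per cell. With each class, named or not, held at its WT share of the UMIs, the ratio was 1.15 at 12 weeks and 1.22 at 21 weeks. Over all kept barcodes at 12 weeks the ratio for Kit was 1.08, and 1.06 at WT class shares, and for Hdc it was 0.811, and 1.29 at WT class shares. At 21 weeks the ratio for Kit was 3.30, and 1.24 at WT class shares, and for Hdc it was 2.85, and 0.989 at WT class shares.

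**Figure D5:**
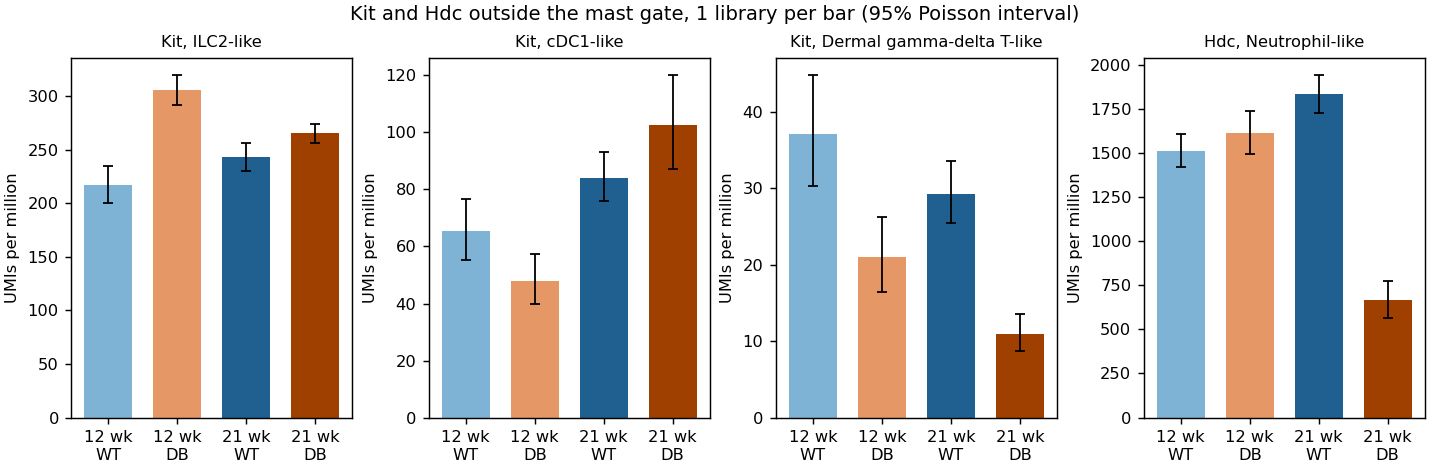
Level of Kit in ILC2-like, cDC1-like and dermal γδ T-like barcodes and of Hdc in neutrophil-like barcodes, in CPM, with 1 bar per library and 95% Poisson intervals. Hdc in neutrophil-like barcodes is lowest in 21-week-DB (664), and Kit in ILC2-like barcodes lies between 217 and 306.

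Neutrophil-like barcodes held much of the Hdc outside the gate, except in 21-week-DB. They numbered 121, 102, 134 and 43 and held 70.9%, 59.0%, 43.4% and 13.7% of the Hdc UMIs of other barcodes. In 21-week-DB this was below the unnamed (25.1%) and the ILC2-like barcodes (21.1%). Their Hdc level was 1512, 1612, 1833 and 664 CPM, and 92.6%, 77.5%, 88.1% and 76.7% of them had a UMI, at a median depth of 2889.5 UMIs, against 3.03% of the deeper macrophage-like barcodes. The 21-week-DB level was apart from the other 3. DB had 1.07 times the WT level at 12 weeks and 0.362 times at 21 weeks (0.306 to 0.426). Neutrophil markers made up 12.5%, 8.15%, 8.34% and 7.65% of the UMIs of these barcodes, and the part of this difference in the Hdc values was not tested. Monocyte-derived macrophage-like barcodes had 28.5 CPM of Hdc, stromal-like 76.8, B-like 22.4 and ILC2-like 16.8, and the other named classes between 3.82 and 6.97.

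Fcer1g was spread over myeloid and some lymphoid barcodes. The level was 1257 CPM in macrophage-like, 1401 in monocyte-derived macrophage-like, 932 in neutrophil-like, 842 in DETC-like (dendritic epidermal T cell-like) and 651 in NK-like barcodes, against 43.4 in dermal γδ T-like and 41.5 in ILC2-like barcodes. Macrophage-like barcodes held 44.2% of the Fcer1g UMIs outside the gate and the barcodes with the highest class II marker score held 34.6%. The latter did not meet the rule for naming and were not compared between groups. Tph1 outside the gate was low in every class. ILC2-like barcodes had 3.81 CPM on 105 UMIs, 43.6% of those outside the gate. Their counts of 15, 19, 29 and 42 UMIs were 17.6, 17.1, 30.2 and 2.21 times those that the ratio of Tph1 to gate proteases in mast cells would give, lowest in 21-week-DB.

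The genes with the most similar pattern were sought over 56 sums (14 classes in 4 libraries) by Pearson's r of log2 levels, which share depth and library and carry no test. Classes needed at least 10 barcodes, which left out the basophil-like barcodes. In that class Gata2, Fcer1a and Ms4a2 had UMIs and Mrgprb1 had none, so the r values do not cover this difference. Fcer1a was most like Gata1 (r = 0.979), Ms4a2 like Smpx (0.975), Mrgprb2 like Krt4 (0.979), Mrgprb1 like Mcpt2 (0.954), Tph1 like Mcpt4 (0.952) and Gata2 like Mrgprb1 (0.932). The nearest gene was less close for Hdc (Rab44, 0.885), Fcer1g (Fcgr3, an Fc receptor that uses the gamma chain, 0.878) and Kit (Grik2, 0.828), the 3 genes with many UMIs in other classes.

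Within single mast cells the 9 genes were widely co-detected. The median mast cell had UMIs of 7, 7, 6 and 6 of them, at least 5 were detected in 92.8%, 90.6%, 88.2% and 87.1%, and all 9 in 10.4%, 10.4%, 7.02% and 8.06%. No mast cell in any library lacked all 9.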

How the data were processed

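CD45+ hindpaw leukocytes were profiled with droplet 3′ single-cell RNA-seq, and the authors deposited 4 matrices of raw UMI counts per gene and barcode, filtered for cells and aligned to mm10. The file headers name Cell Ranger 5.0.0 at 12 weeks and 6.0.0 at 21 weeks, the labels name 5.0.0 and the study's methods name the later release for all libraries. The authors removed ambient RNA in their own analysis, but not from the deposited counts. Groups came from the labels, and the ages in weeks from the study's methods.

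The 9 genes, the lists around them and the gate were chosen with earlier results of these data known. Barcodes under 200 genes or over 10% mitochondrial UMIs were removed. Levels are CPM (UMIs per 1000000) over summed barcodes, with exact Poisson intervals, and shares have Clopper-Pearson intervals. Ratios have conditional intervals, and ratios over all genes used those with at least 20 UMIs. All intervals are 95% and assume independent UMIs. Sums of mast and other barcodes were tested with edgeR 4.0.16 (R 4.3.3; quasi-likelihood, TMM, filterByExpr, library as a block, n = 4 pairs), after a test on simulated data. Alternatives included DESeq2 1.42.0 and removal of Scrublet-marked doublets (scanpy 1.11.5), which marked 9 to 18 mast cells a library and were otherwise retained. All 9 members are named, as are genes of the lists. Eosinophil-like barcodes (1) were left out.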

Additional observations from a re-analysis of the deposited data

Results flagged for a closer look

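The mast cell share of kept barcodes went in opposite directions between ages and genotypes as reported, but not under each alternative. The DB to WT ratio was 0.691 at 12 weeks and 4.50 at 21 weeks, and the ratio of 21 to 12 weeks was 0.478 in WT and 3.11 in DB. With 1 library a group the difference between these ratios was not tested, and the same holds for all ratios that follow. The intervals of each pair lay on opposite sides of 1. With the mast cells that held markers of other classes left out (238 in DB and 209 in WT remaining at 12 weeks), the 12-week DB to WT ratio was 0.916 and its interval of 0.758 to 1.11 included 1.

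Gata2 in mast cells was 0.916 times the 12-week level at 21 weeks in WT and 1.08 times in DB. The log2 ratio in WT was 0.070 with those mast cells left out and 0.00185 when centred on the median of all genes, so that the directions were then no longer opposite. Kit in ILC2-like barcodes was 1.12 times in WT and 0.869 times in DB between the same ages. Kit in cDC1-like barcodes had a DB to WT ratio of 0.735 at 12 weeks and 1.22 at 21 weeks. Hdc in neutrophil-like barcodes was 1.21 times its 12-week level at 21 weeks in WT and 0.412 times in DB, and Fcer1g in the same barcodes was 1.16 times in WT and 0.843 times in DB.

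Barcodes that the filters on genes and mitochondrial UMIs left out also held mast cells. At 12 weeks, 34 of 727 left-out barcodes in WT and 15 of 911 in DB passed the mast gate, and at 21 weeks 15 of 938 in WT and 5 of 417 in DB did, above the 3 counts that a count of 0 allows. In the same order they held 132, 28, 37 and 9 UMIs of Kit.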

How the results depend on the processing

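All 9 genes remained higher in mast cells and 0 lower in edgeR or DESeq2 under each of 12 alternatives, with no library block included, and from 9 to 9 higher without each library in turn. No paired analysis was possible because each group was 1 library, so that no replicate number pairs the groups; the pairing used is that of mast and other sums of a library. With mast cells that held markers of other classes left out, the DB to WT ratio of the mast cell share was 0.916 at 12 weeks and 5.70 at 21 weeks, and the median 21-week DB to WT log2 ratio of the 9 genes was 0.25. The Gata2 log2 ratio turned: for DB to WT at 21 weeks it was -0.15 with those barcodes left out and -0.034 with each barcode weighted equally, and for 21 to 12 weeks in WT it was 0.070 with those barcodes left out and 0.00185 when centred on the median of all genes. The cause was not tested. Of 324 log2 ratios over 9 settings, 293 stayed within the interval of the reported value, 27 moved beyond it and 4, whose reported interval lay to one side of no change, turned. Among the others, 18 changed sign where the reported interval included no change, among them Ms4a2 for DB to WT at 21 weeks (0.14 reported, -0.031 with the marker-holding barcodes left out). Of 252 detected shares, 47 moved, 36 of them by thinning. Depth limits Fcer1a and Mrgprb2 most, with intervals up to 17.9% and 18.1% of a level to a side.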
